A study of Mus musculus with 6 samples.

Results

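The 34 genes described here are type I interferon response genes, chosen by name from what the pathway is known to contain, and all 34 were found by gene name among the 38293 genes measured. RNA was taken from 6 B-cell tumors of C57BL6 mice that all carried the Eμ-Myc transgene, in which the immunoglobulin heavy chain enhancer drives c-Myc in the B lineage. 4 tumors came from miR-146a+/+ mice (called sufficient): tumors 1 and 2 from neck nodes at 18 and 16 weeks of age, and tumors 3 and 4 from the thymus at 10 weeks. The other 2 came from miR-146a-/- mice (called deficient), whose miR-146a is deleted in every cell: tumor 1 at 11 weeks and tumor 2 at 10 weeks, both from the thymus. The sufficient mice were labelled male and the deficient mice female, so genotype and labelled sex cannot be told apart.

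Type I interferons are secreted when a cell senses foreign or misplaced nucleic acid. They bind the receptor made of Ifnar1 and Ifnar2, and the kinases Jak1 and Tyk2 then activate Stat2, which joins Irf9 in the complex that switches on a large set of genes. Many of these genes sense viral RNA, stop its translation or block virus entry and release, and Irf7 among them amplifies the production of interferon. miR-146a, a microRNA induced by NF-κB, is best known for repressing Traf6 and Irak1. Both act downstream of the Toll-like receptors, which can feed this pathway. The comparison asks how the response genes differ between tumors with and without miR-146a.

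Levels are given as RPKM, reads scaled to the length of the gene and the number of reads, which is a level per length. The total RPKM of a tumor lay between 675516 and 788919 in 5 tumors and was 1932930 in deficient tumor 1. Without Xist, the RNA of the inactive X chromosome, that last total was 692853. Xist itself was listed at 1.24e+06 RPKM in deficient tumor 1 and at 1585 to 2203 in the other 5 tumors. How the RPKM were derived is not given, so comparisons of level between genes are uncertain. Deficient tumor 2 went against its labelled sex: Ddx3y, a Y-linked RNA helicase, stood at 24.6 RPKM there, against 17.9 to 23.0 in the tumors labelled male and 0.130 in deficient tumor 1. The comparisons between genotypes are therefore also described without it. The host gene of miR-146a was listed at 0 in every tumor, so the genotype labels could not be checked. B-cell markers such as Cd79a summed to 1039 to 1917 RPKM, so every tumor carried the genes of its labelled lineage. The tumors were measured as unsorted cell suspensions, in which fewer cells of a type and less RNA per cell cannot be told apart.

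Sequences near the gene starts are shown first because the genes were named for a shared way of being switched on. The complex that holds Stat2 and Irf9 binds the interferon-stimulated response element, whose core was searched for as GAAA, any 2 bases and GAAA, on both strands, from 250 bases before to 50 bases after the start. Of the 34 genes, 25 had such a window among the promoters of RefSeq (GRCm38.p6), and 13 of these (52%) held at least 1 match, compared with 1079 of 27025 genes (3.99%) in the same table. Ifit1 and Oas3 held a match and ranged over more than 5-fold between tumors, but are not shown. The following 4 genes did so too and are shown. They are Isg15 (chr4:156200769-156201068, minus strand), Ifit3 (chr19:34583279-34583578, plus strand), Oas1a (chr5:120907476-120907775, minus strand) and Rsad2 (chr12:26456403-26456702, minus strand), and capitals mark the matches.
Isg15: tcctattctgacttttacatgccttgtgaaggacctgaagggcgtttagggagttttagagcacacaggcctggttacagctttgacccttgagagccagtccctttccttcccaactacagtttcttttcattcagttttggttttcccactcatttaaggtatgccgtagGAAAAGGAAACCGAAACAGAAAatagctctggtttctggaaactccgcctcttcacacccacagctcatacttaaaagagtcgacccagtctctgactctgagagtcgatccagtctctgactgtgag
Ifit3: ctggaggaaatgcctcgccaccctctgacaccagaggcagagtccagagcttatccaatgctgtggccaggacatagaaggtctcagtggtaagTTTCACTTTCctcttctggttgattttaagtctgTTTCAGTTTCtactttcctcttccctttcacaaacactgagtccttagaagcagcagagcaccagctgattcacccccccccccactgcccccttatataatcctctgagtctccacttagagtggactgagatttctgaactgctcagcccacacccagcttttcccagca
Oas1a: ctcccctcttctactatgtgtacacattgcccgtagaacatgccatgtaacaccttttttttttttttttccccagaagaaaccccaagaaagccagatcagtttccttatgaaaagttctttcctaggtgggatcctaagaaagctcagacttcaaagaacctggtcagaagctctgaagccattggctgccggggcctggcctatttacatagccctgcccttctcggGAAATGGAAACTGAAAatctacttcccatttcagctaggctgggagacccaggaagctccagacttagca
Rsad2: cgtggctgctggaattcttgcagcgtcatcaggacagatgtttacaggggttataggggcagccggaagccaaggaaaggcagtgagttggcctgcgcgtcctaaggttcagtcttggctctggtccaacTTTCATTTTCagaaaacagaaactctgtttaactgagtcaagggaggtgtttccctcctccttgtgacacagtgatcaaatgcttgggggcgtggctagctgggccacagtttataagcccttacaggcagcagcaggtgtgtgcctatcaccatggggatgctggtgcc

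In Isg15, 3 overlapping matches began 78, 72 and 66 bases before the start. Oas1a held 2 overlapping matches at 20 and 14 bases before the start, and Ifit3 held 2 at 156 and 122 bases before it, on the other strand. Bst2 also held 2 matches, 130 and 124 bases before the start. The matches of Ddx58, Ifih1, Eif2ak2 and Ifitm3 lay after the start. No match was found in the windows of the other 12 genes, Irf7 and Irf9 among them. Matches were held by 9 of the 17 genes with a window that were higher in the same tumor as Isg15 in all 3 pairs of like tumors (described with the levels), and by 4 of the other 8. A match describes letters in the window and is not a measured binding site.

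**Figure D1:**
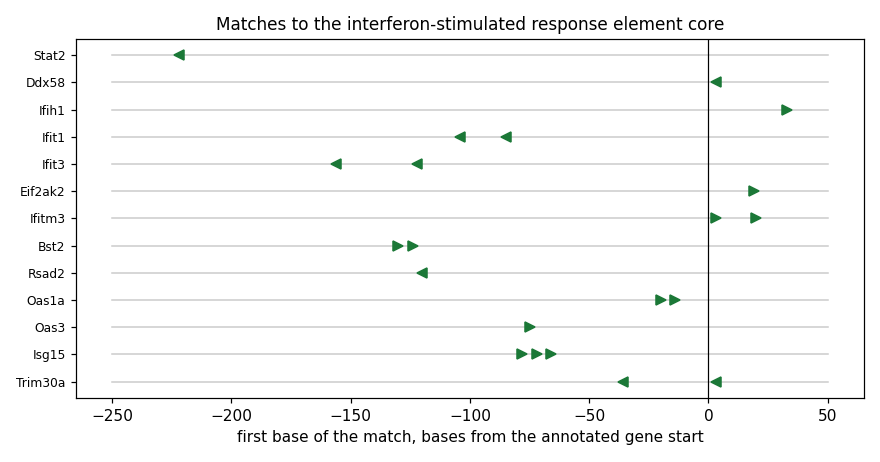
Matches to the core of the interferon-stimulated response element in the 13 genes with at least 1 match, placed by their first base relative to the annotated gene start (horizontal axis, bases). Triangles point right for the gene's strand and left for the other strand, and 9 of the 13 genes have a match before the start.

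Tumors of the same genotype and site differed in the levels of most of the set. Deficient tumor 1 had the highest level of 23 of the 34 genes, and all 34 stood among the highest 3 of the 6 tumors there. Over the 12751 genes that passed the filter on low values (0.5 RPKM or more in 2 or more of the tumors), deficient tumor 1 was the highest for 9.34% and among the highest 3 for 56.2%. Ifih1 and Ifi44, counted in the 34, did not pass this filter. Deficient tumor 2, of the same genotype and site, was the highest for 1 of the 34 (Stat2) and the lowest for 7, compared with 35.6% and 13.6% of all genes tested. This pattern was noticed after the values were seen and is given as a description, with no test.

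Isg15, a ubiquitin-like protein that is attached to other proteins during the response, differed widely between the deficient tumors. Its level was 7.26 RPKM in deficient tumor 1 and 1.10 in deficient tumor 2, compared with 4.85 and 1.201 in the neck node tumors and 5.23 and 2.01 in the sufficient thymic tumors 3 and 4. Each pair of like tumors thus held 1 high and 1 low tumor, and the range of the deficient tumors enclosed that of the sufficient tumors.

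The regulators of the response are the factors that pass on or amplify the signal. Irf7, which drives interferon genes, had 2.94, 0.918, 1.32 and 0.529 RPKM in sufficient tumors 1 to 4, and 4.31 and 1.81 in the deficient tumors. The highest level was in deficient tumor 1, and deficient tumor 2 lay below sufficient tumor 1. Usp18, the protease that removes Isg15 and damps the receptor, had 1.66, 0.523, 1.11 and 0.455 RPKM in the sufficient tumors and 2.15 and 0.344 in the deficient tumors, so that the 2 deficient tumors were the highest and the lowest of all.
Stat2 and Irf9 varied less. Stat2 had 8.91, 8.97, 6.12 and 6.85 RPKM in the sufficient tumors and 9.25 and 9.70 in the deficient tumors, and Irf9 ranged from 2.89 to 4.71. For Stat2 both deficient tumors lay above all 4 sufficient tumors, and the sufficient neck node tumors lay above the thymic ones.

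The sensors recognise foreign nucleic acid. Ddx58 (RIG-I) and Dhx58 (LGP2), RNA helicases, ranged from 1.81 to 3.61 and from 1.67 to 3.75 RPKM, while Ifih1 (MDA5), a helicase for long double-stranded RNA, ranged from 0.131 to 0.572 and did not pass the filter. Trim25, the ubiquitin ligase that acts on RIG-I, was the most abundant of this group: 47.1 and 53.0 RPKM in the neck node tumors, 34.6 and 33.5 in the sufficient thymic tumors, and 44.5 and 41.0 in the deficient tumors. Its levels followed the site in the sufficient tumors, and the deficient thymic tumors lay between the 2 sites. Zbp1, a sensor of Z-form nucleic acid, ranged from 0.431 to 1.59 RPKM.

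The effectors act on the virus or its RNA. Ifit3, which works with Ifit1 and Ifit2 on viral RNA, had 2.82, 0.946, 2.81 and 0.950 RPKM in sufficient tumors 1 to 4, and 5.41 and 1.56 in the deficient tumors. Among the sufficient tumors, the low tumors of both sites had nearly the same level, as did the high tumors. Ifit1, encoded on the same chromosome, followed the same order within each pair. It had 1.59 and 0.296 RPKM in the neck node tumors, 0.955 and 0.456 in the sufficient thymic tumors, and 1.65 and 0.319 in the deficient tumors. Ifit2 did not: it had 2.09 and 3.23 RPKM in the neck node tumors, 1.53 and 1.48 in the sufficient thymic tumors, and 2.67 and 3.01 in the deficient tumors, and so was lower in the tumors where Ifit1 was higher in 2 of the 3 pairs.
Rsad2 (viperin), which makes a chain-terminating nucleotide, had 0.536, 0.199, 0.429 and 0.237 RPKM in the sufficient tumors and 1.10 and 0.310 in the deficient tumors. Cmpk2, its neighbour on chromosome 12 and a nucleotide kinase, had 2.13, 2.09, 3.50 and 2.12 RPKM and then 4.43 and 1.76. Both genes were the highest in deficient tumor 1, and for Cmpk2 sufficient tumor 3 stood above the other sufficient tumors.
Mx1 and Mx2, GTPases that trap viral capsids, ranged from 0.300 to 1.81 and from 0.251 to 1.06 RPKM, with both maxima in deficient tumor 1. In most inbred mice, C57BL/6 among them, Mx1 is a defective allele. Eif2ak2 (PKR), which halts translation, ranged from 5.10 to 8.64 RPKM.
The most abundant gene of the set was Bst2 (tetherin), which holds budding virus on the cell: 90.2 and 76.9 RPKM in the neck node tumors, 70.4 and 69.0 in the sufficient thymic tumors, and 107 and 62.1 in the deficient tumors. The deficient tumors were its extremes. Ifitm3, which blocks virus entry, had 21.6, 6.60, 5.91 and 12.8 RPKM in the sufficient tumors and 17.0 and 10.9 in the deficient tumors, and was the only effector lower in sufficient tumor 3 than in sufficient tumor 4.

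The oligoadenylate synthetases make the messenger that activates RNase L. Oas1a had 3.06, 0.461, 1.84 and 0.765 RPKM in sufficient tumors 1 to 4, and 3.82 and 0.510 in the deficient tumors. Oas2, in the same cluster on chromosome 5, had 1.55, 0.937, 0.554 and 0.444 RPKM and then 2.95 and 0.572. For both genes deficient tumor 2 lay within the range of the sufficient tumors, and deficient tumor 1 lay above it. Oas3 had 0.968 RPKM in sufficient tumor 1 and 0.808 in deficient tumor 1, and 0.116 to 0.257 in the other 4 tumors. The synthetase-like genes were Oasl1, from 0.254 to 1.08 RPKM, and Oasl2, for which both deficient tumors (1.15 and 0.744 RPKM) lay above all sufficient tumors (0.725, 0.316, 0.321 and 0.315). Oas1a, Ifit3 and Trim30a have closely related copies in the genome, and reads shared between copies make their levels less certain.

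Of the ligases, Herc6, which attaches Isg15 in the mouse, ranged from 1.504 to 3.37 RPKM, and Trim30a, a negative regulator of Toll-like receptor signals, from 2.78 to 7.59. The deficient tumors held both extremes of Herc6 and the maximum of Trim30a. Among the remaining genes, Rtp4, a chaperone of membrane receptors, had 2.04, 1.08, 1.69 and 0.416 RPKM in the sufficient tumors and 3.38 and 0.801 in the deficient tumors. Parp9 and Parp14, neighbours on chromosome 16 that encode ADP-ribosyltransferases, ranged from 5.83 to 8.53 and from 2.48 to 6.59 RPKM. Ifi35 ranged from 10.1 to 19.5, Xaf1, a promoter of apoptosis, from 0.338 to 1.67, and Ifi44 from 0.0161 to 0.118. Samd9l, a growth suppressor in blood cells, had 10.1, 23.4, 18.3 and 18.6 RPKM in the sufficient tumors and 26.8 and 18.2 in the deficient tumors. It was the widest exception in the neck nodes, with its lowest level in sufficient tumor 1, where 30 of the 34 genes were among the highest 3.

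**Figure D2:**
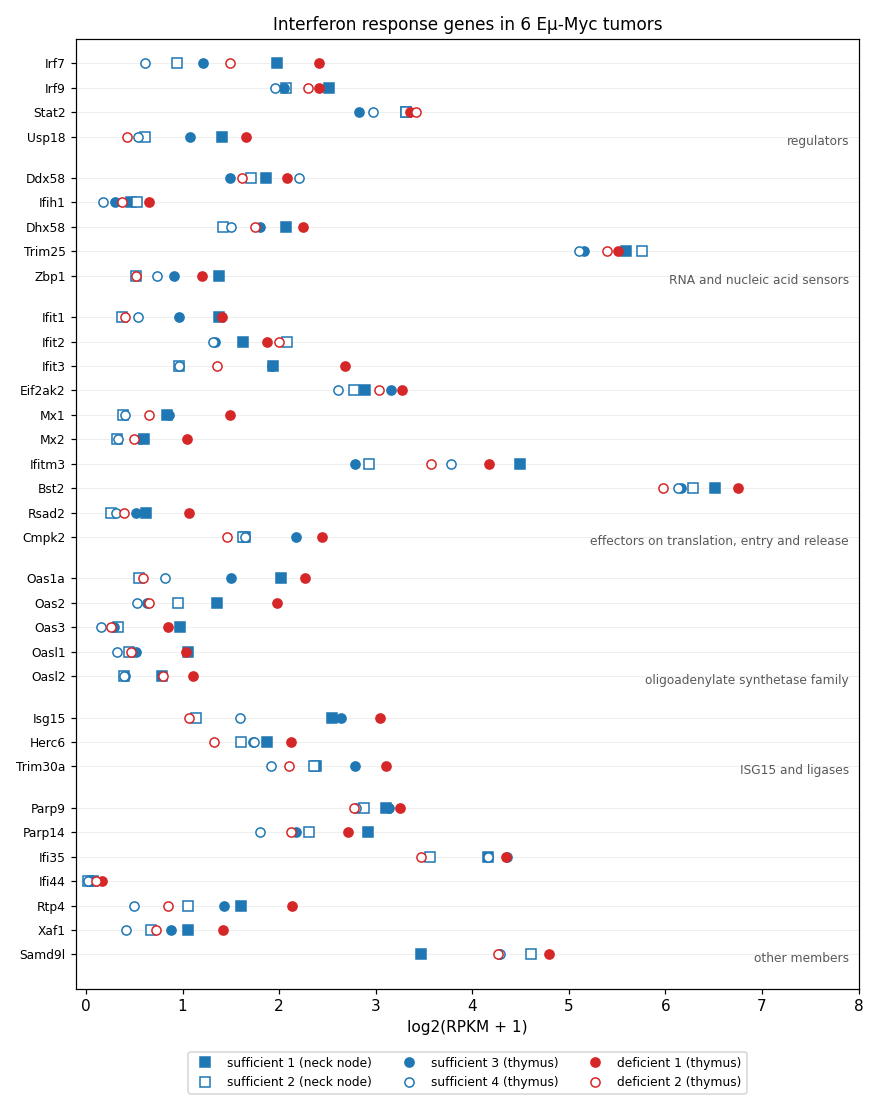
Level of each of the 34 genes in each tumor, as log2(RPKM + 1), grouped by role. Squares are neck node and circles thymic tumors, blue sufficient and red deficient, with filled symbols for tumors 1 and 3 and open symbols for tumors 2 and 4. Filled symbols lie to the right of open ones of the same shape and color in most rows, and the filled red circle of deficient tumor 1 is the highest in 23.

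Across the set, the ratio of the highest to the lowest tumor ran from 1.46 (Parp9) to 8.37 (Oas3), with a median of 3.68. It was over 3 for 17 of the 32 genes that passed the filter, against 27.5% of all genes tested. After each gene was set relative to its own mean over the tumors, the median of the 34 genes was 0.45 on the log2 scale in deficient tumor 1 and 0.18 in sufficient tumor 1. It was -0.01 in sufficient tumor 3, -0.19 in sufficient tumor 2, -0.19 in deficient tumor 2 and -0.30 in sufficient tumor 4. The same median over all genes tested was 0.03 in deficient tumor 1 and 0.01 in sufficient tumors 1, 2 and 4, but -0.21 in sufficient tumor 3 and 0.14 in deficient tumor 2. Those last 2 tumors thus differed from the others in the scale of all genes.

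**Figure D3:**
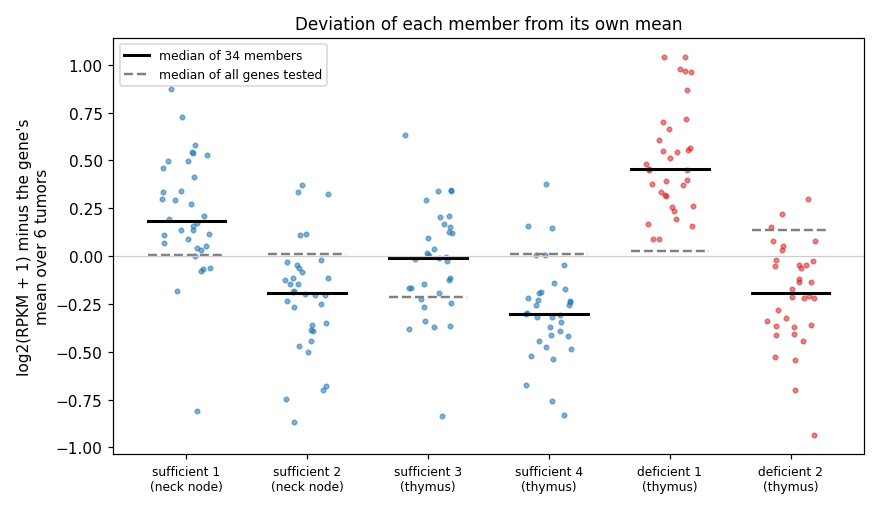
Deviation of each gene from its own mean over the 6 tumors, in log2(RPKM + 1), by tumor. Points are the 34 genes, solid lines their median and dashed lines the median of all genes tested; the solid line lies above the dashed line in deficient tumor 1 (0.45 against 0.03) and in sufficient tumors 1 and 3, and below it in the other 3 tumors.

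Tumors of the same genotype and site form 3 pairs, and most of the set differed in the same direction within each. Between the deficient thymic tumors, 32 of 34 genes were higher in tumor 1, by a median of 0.64 on the log2(RPKM + 1) scale, whereas 40.6% of all genes tested were. These tumors also differed in the genes of the sex chromosomes (Ddx3y at 0.130 and 24.6 RPKM), which the tumors of the other pairs did not, and the part of this in the difference was not tested. Between the neck node tumors, 29 of 34 were higher in tumor 1 (median 0.39), against 50.3% of all genes. Between the sufficient thymic tumors, 29 of 34 were higher in tumor 3 (median 0.20), against 32.3%. The median over all genes was -0.11, 0.00 and -0.20 in these pairs.

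In RPKM, the difference was over 2-fold for 18, 15 and 10 of the 34 genes, against 5.3%, 5% and 5.29% of all genes tested in the same direction. It was over 2-fold the other way for Samd9l in the neck nodes and for Ddx58 and Ifitm3 in the sufficient thymic tumors. The 34 include Ifih1 and Ifi44, which did not pass the filter and are not among the genes tested. The median level of the set was 1.14 to 3.57 RPKM by tumor, and the genes tested were not matched to it in level. In all 3 pairs together, 26 of 34 genes were higher in the same tumor as Isg15, compared with 11.7% of all genes tested. Isg15 is itself counted in the 26, so this order was taken from the set and not from outside it. The 8 exceptions were Stat2, Ddx58, Ifih1, Trim25, Ifit2, Ifitm3, Herc6 and Samd9l, which include 3 of the 5 sensors and none of the synthetases. With median-ratio scaling, chosen for the pairs after seeing the data, the counts were 27 of 34 and 20.1%. With quantile normalization they were 26 of 32 and 19.2%. Each pair is 1 tumor against 1 tumor, so none of these differences has a replicate.

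**Figure D4:**
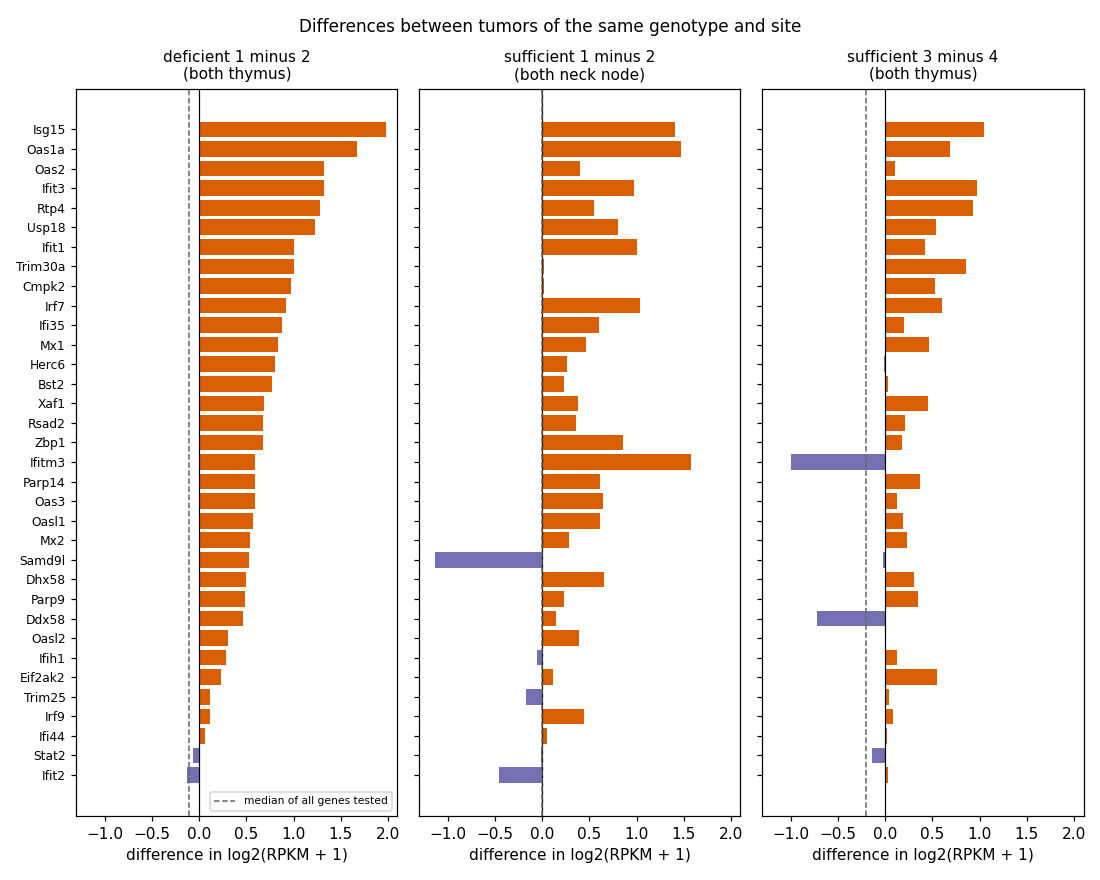
Difference in log2(RPKM + 1) between tumors of the same genotype and site for each of the 34 genes, in order of the difference between the deficient tumors. Bars to the right (orange) are higher in deficient 1, sufficient 1 or sufficient 3, bars to the left (purple) are lower, and the dashed line is the median of all genes tested. Bars point right for 32, 29 and 29 genes.

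Markers of other cell types moved with some of these differences. Of 13 T and NK cell markers, 10 were higher in the same tumor as Isg15 in all 3 pairs, against 11.7% of all genes tested. Cd3e, a chain of the T-cell receptor complex, had 5.59 and 1.19 RPKM in the neck node tumors, 2.31 and 0.428 in the sufficient thymic tumors, and 0.963 and 0.857 in the deficient tumors. Its difference was the smallest in the deficient pair, where that of the interferon response genes was the widest. Over the whole list, the summed level was 26.0 to 80.1 RPKM in the sufficient tumors and 21.7 and 24.1 in deficient tumors 1 and 2. Of 13 macrophage markers, 0 were higher in that tumor in all 3 pairs, and their sums were 130 to 305 and 227 to 277 RPKM in the sufficient and deficient tumors. For plasmacytoid dendritic cells, the chief makers of type I interferon, 3 of 8 markers were, with sums of 104 to 421 and 117 to 182 RPKM, mostly Ly6d and Spib, which B-lineage cells also make. Siglech, a marker of that cell type, was 1 of the 3 that followed the order of Isg15 in each pair, with Spib and Ccr9. It had 1.00 and 0.415 RPKM in the neck node tumors and 0.494 and 0.176 in the sufficient thymic tumors. In the deficient tumors it had 0.326 and 0.0580 RPKM. Cox6a2 went the other way, at 0.525 and 23.2 RPKM in the deficient and 2.25 and 24.2 in the sufficient thymic tumors. The whole list summed to 182 and 117 RPKM in the deficient tumors and 134 and 104 in the neck node tumors. Between sufficient tumors 3 and 4 it went against the set, at 223 and 421 RPKM. Of 7 dendritic cell markers, 4 followed the order of Isg15 in all 3 pairs (Zbtb46, Itgax, Cd209a and Clec9a). The 7 summed to 29.5 to 56.8 and 44.3 to 50.6 RPKM, mostly Ccr7 (24.8 to 53.7 RPKM), which was not among the 4. None of the 7 B-cell, 10 neutrophil, 6 erythroid, 6 fibroblast and 5 endothelial markers followed that order in all 3 pairs. Between the deficient tumors alone, however, 6 of the 7 B-cell markers moved with the set, with a sum of 1917 RPKM in tumor 1 and 1042 in tumor 2. Ms4a1 (CD20) differed the most, at 361 and 48.0 RPKM, while Cd79a was at 532 and 388. Cd22 went the other way, at 86.7 and 105 RPKM. Between the neck node tumors the B-cell markers moved against the set, with sums of 1039 and 1539 RPKM. No marker in the lists was at 0 in all tumors apart from a second entry of Ebf1. The part of these cells in the levels of the interferon response genes was not tested.

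The genes that make and receive the signal were examined in the same way. Of 16 interferon genes in the file, 13 were listed at 0 in every tumor, Ifnb1 and all 11 Ifna genes among them. Ifng, the type II interferon made by T and NK cells, had 0.473 RPKM in deficient tumor 1 and 0.0245 in deficient tumor 2, and 0.104, 0.0814, 0.0893 and 0 in the sufficient tumors. It was the highest in the tumor where the response genes were, at a level below the filter. Ifnk, a type I interferon, did not follow them. It had 0.112, 0.0744, 0.0960 and 0.0460 RPKM in the sufficient tumors and 0 in both deficient tumors, also below the filter. Il28b was above 0 in sufficient tumor 2 only, at 0.0323 RPKM. Of 12 receptor and kinase genes, 2 followed the order of Isg15 in each pair, the kinase Jak2 and Pias1, against 11.7% of all genes tested. Of 18 genes that induce interferon, 2 did (Irf3 and Tlr3). Of 36 further response genes 11 did, among them Ifi205, Isg20, Mnda and Cxcl10, a chemokine that draws T cells and had 1.10 and 0.467 RPKM in the deficient tumors.

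The deficient tumors were compared with the sufficient tumors by limma on log2(RPKM + 1), over all genes that passed the filter. None of the 32 interferon response genes tested passed the adjusted p threshold of 0.05, where 8 of 12751 genes (0.0627%) did. None reached an unadjusted p of 0.05, which 3.62% of all genes did. The log2 fold change was positive for 29 of the 32 genes, with a median of 0.23. Over all genes it was positive for 67.6%, with a median of 0.13, so part of the shift was shared by genes in general. Under median-ratio scaling, which brought the median of all genes to -0.01, the set had a median of 0.12, with 23 of 32 positive.

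Irf7 had the largest positive change, 0.76 (SE 0.42), from 1.43 ± 1.06 RPKM (SD, n = 4) to 3.06 ± 1.77 (SD, n = 2), with a limma adjusted p of 0.893. Ifit3 changed by 0.57 (SE 0.45, limma adjusted p of 0.893) and Oasl2 by 0.46 (SE 0.23, limma adjusted p of 0.893). The negative values were small: -0.16 (SE 0.32) for Ifi35, -0.03 (SE 0.31) for Zbp1 and -0.01 (SE 0.28) for Herc6, with limma adjusted p of 0.932, 0.990 and 0.997. None of these 6 passed the threshold, and for Oasl2 alone among them the genotypes did not overlap. The sizes depended on the pseudocount: Irf7 was at 0.32 with 5 added to each RPKM and at 1.17 with 0.1 added, and Oasl2 at 0.13 and 1.05. By role, the median was 0.31 for the 10 effectors, 0.24 for the 4 regulators, 0.21 for the 5 synthetases and also for the 6 other genes, 0.08 for Isg15 and the ligases and 0.04 for the 4 sensors tested. Both deficient tumors lay above all 4 sufficient tumors for Stat2 and Oasl2, 2 of 32 genes, where 9.15% of all genes tested did so. Ifi44, which did not pass the filter, did as well. In no gene of the set did both lie below, against 2.09% of all genes. For a single gene, an exact permutation test of 2 against 4 tumors cannot give a two-sided p below 0.133.

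The direction rested on deficient tumor 1. Without it, the median log2 fold change was -0.19, with 10 of 28 genes positive, and that of all genes 0.18. Without deficient tumor 2, whose labelled sex was in doubt, the median was 0.59, with 32 of 32 positive, and that of all genes 0.07, with 63% positive. Deficient tumor 1 alone lay above all 4 sufficient tumors for 22 of these 32 genes, compared with 16.5% of all genes. The difference was then 1.22 for Irf7, 1.23 for Ifit3, 0.61 for Oasl2, 0.82 for Ptpn6 and 1.05 for Socs3. Deficient tumor 1 was also the only tumor with low Ddx3y (0.130 RPKM, against 17.9 to 24.6 in the other tumors). In the fit without deficient tumor 2, genotype and the sex genes thus cannot be told apart. The fit without deficient tumor 1 compared tumors alike in Ddx3y. These fits hold 1 deficient tumor, assumed to vary like the sufficient ones, and are given as values.

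Within the thymus, where 2 deficient and 2 sufficient tumors can be compared without a difference in site, 0 of 28 genes passed the threshold (0.0244% of 12286 genes did). The median log2 fold change was 0.30, with 25 of 28 positive, compared with 0.19 over all genes. Irf7 again had the largest positive value, 1.04 (SE 0.42, limma adjusted p of 0.662), and was the only gene of the set with an unadjusted p below 0.05, as 5.15% of all genes were in this direction. Both deficient tumors lay above both sufficient tumors for 7 of 28 genes (Irf7, Irf9, Stat2, Trim25, Ifit2, Oas2 and Oasl2), where 32.5% of all genes tested did, and below them for 0 of 28, against 10.5%. The share of the set was thus no higher than that of genes in general. Without deficient tumor 2, which leaves 1 tumor against 2 and no test, the median was 0.63, with 28 of 28 positive, and that of all genes 0.13. Deficient tumor 1 then lay above both sufficient tumors for 26 of 28 genes, against 42.6% of all genes. Here too, genotype and the sex genes cannot be told apart.

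The sites were compared in the sufficient tumors, with 2 neck node and 2 thymic tumors. Of 27 genes tested, 0 passed the threshold and 0 reached an unadjusted p of 0.05, where 0.155% and 7.87% of 12255 genes did. The median log2 difference, neck node minus thymus, was 0.12 and that of all genes 0.10, with 20 of 27 positive, against 61% of all genes. With median-ratio scaling the median was 0.05, with 15 of 27 positive, and with quantile normalization 13 of 27 were positive, so no direction held for the set. The largest values were 0.63 (SE 0.33) for Parp14, 0.57 (SE 0.29) for Oas2 and 0.54 for both Irf7 (SE 0.43) and Trim25 (SE 0.23), with limma adjusted p of 0.666, 0.665, 0.745 and 0.628. Trim25 had 50.1 ± 4.13 RPKM (SD, n = 2) in the neck nodes and 34.01 ± 0.768 (SD, n = 2) in the thymus. The lowest were -0.39 (SE 0.29) for Ifi35, -0.27 (SE 0.55) for Isg15 and -0.27 (SE 0.30) for Cmpk2, with limma adjusted p of 0.734, 0.913 and 0.822. Both neck node tumors lay above both thymic tumors for 7 genes (Irf9, Stat2, Trim25, Ifit2, Bst2, Oas2 and Parp14), against 27.9% of all genes, and below for 0, against 12.6%. The site of a tumor and its age cannot be told apart, since the neck node tumors came from older mice. Neutrophil markers also moved with the site, with sums of 1645 and 1698 RPKM in the neck nodes and 207 to 238 in the sufficient thymic tumors, and their part in these values was not tested.

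**Figure D5:**
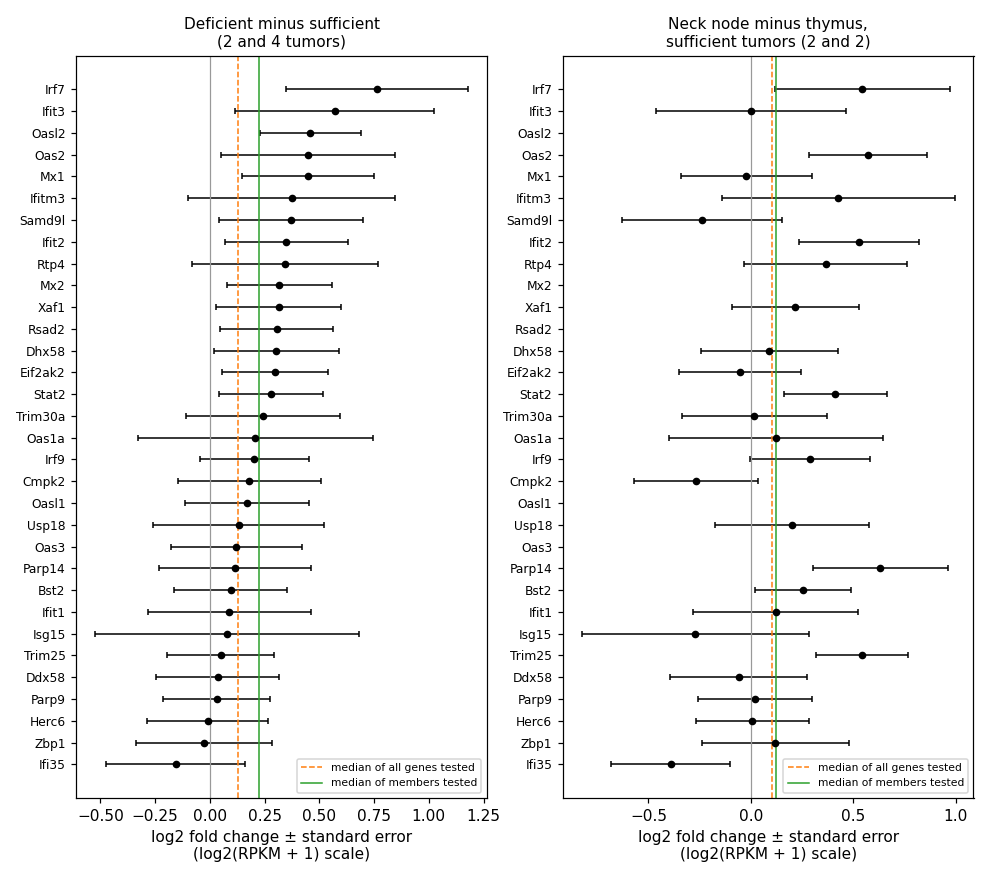
Log2 fold change with its standard error from limma, on the log2(RPKM + 1) scale, for deficient minus sufficient tumors (left, 32 genes) and for neck node minus thymic sufficient tumors (right, 27 genes tested; rows without a point were not tested there). The solid line is the median of the set (0.23 and 0.12) and the dashed line that of all genes tested (0.13 and 0.10), and 0 genes passed the threshold in either panel.

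Of the other genes of the pathway, 0 passed the threshold between genotypes and 0 between sites. Of 12 receptor and kinase genes, 8 had a positive log2 fold change, with a median of 0.15, and over all genes tested 67.6% were positive, with a median of 0.13. The largest values were 0.90 (SE 0.25) for Ptpn6, the phosphatase SHP-1, which damps receptor signals, and 0.87 (SE 0.30) for Socs3, a feedback inhibitor of cytokine receptors. Ptpn6 stood at 37.9 to 67.8 RPKM in the sufficient tumors and at 91.4 and 102 in the deficient ones, without overlap, and its limma adjusted p was 0.893. The next was Ifngr1, a receptor of the type II interferon, with 0.35 (SE 0.21). Socs3 and Ifngr1 did not overlap between the genotypes either. Over all genes tested, both deficient tumors lay above all sufficient tumors for 9.15%. Of 17 inducing genes tested, 11 were positive, with a median of 0.22. The largest values were 0.64 for Tlr9 (SE 0.30), a sensor of DNA in endosomes, 0.64 for Traf3 (SE 0.38) and -0.51 for Tmem173 (STING, SE 0.44). Traf6 and Irak1, the described targets of miR-146a, had 8.78 and 11.3 RPKM and 22.4 and 33.0 RPKM in the deficient tumors, against 8.03 to 10.7 and 20.4 to 24.0 in the sufficient tumors. For both, deficient tumor 1 lay within the range of the sufficient tumors and deficient tumor 2 above it, the reverse of the order of the interferon response genes. Deficient tumor 2 was also the highest tumor for 35.6% of all genes tested. Of 32 further response genes tested, 23 were positive, with a median of 0.14. None of the shares of positive values was thus far from that of all genes, and the largest values were -1.24 (SE 0.68) for Pyhin1, 1.08 (SE 0.30) for Lgals3bp and -1.07 (SE 0.55) for Slfn2. Without deficient tumor 2, the positive counts were 9 of 12, 9 of 17 and 26 of 32, against 63% of all genes.

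Matches to the miR-146a seed were counted in the longest annotated 3′UTR of each gene (GENCODE M21), as at least 7 bases. The mature miR-146a-5p (RefSeq, GRCm38.p6, chr11:43374435-43374456, minus strand) and miR-146b-5p (chr19:46342790-46342811, plus strand) share the same seed, shown in capitals, so that a site cannot be assigned to either.
miR-146a-5p: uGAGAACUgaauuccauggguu
miR-146b-5p: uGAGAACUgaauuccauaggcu
Of the 34 genes, 7 held a site (Stat2, Trim25, Ifit2, Rsad2, Ifi44, Rtp4 and Xaf1), compared with 2139 of 10707 genes tested (20%). The median 3′UTR was 980 bases long in the set and 1115 bases over the genes tested. The longest match, 8 bases, was in Ifit2, and Stat2, for which the genotypes did not overlap, held 1 of 7 bases. They are shown with the bases around them, the matches in capitals.
Ifit2: aattaccagccAGTTCTCAatctatggtgt
Stat2: ctgggcccttcAGTTCTCtcttccagttac
Of the genes with a site, Stat2 and the untested Ifi44 were higher in both deficient tumors than in every sufficient tumor, and the other 5 overlapped between the genotypes. Oasl2 did the same with no site, as did 9.15% of all genes tested.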

How the data were processed

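Libraries were single-end, from total RNA of 6 tumors, with 2 technical replicates per tumor per the labels and 1 column per tumor in the file. The authors aligned reads with STAR 2.3.0 to GRCm38 (mm10, Ensembl 71) and counted them per gene with HTSeq 0.5.4p3. The authors' test was DESeq (1.12.1 in the labels). The deposited values are RPKM, whose derivation from the counts is not given in the sources used here. No counts were at hand, so the depth is unknown and no counting interval is given. Here log2(RPKM + 1) was fitted with limma 3.58.1 (R 4.3.3, trend), after keeping genes at 0.5 RPKM or more in 2 or more tumors, with Benjamini-Hochberg adjustment over all genes kept. The script was tested on simulated data. Nothing says whether tumors shared a litter or batch. The 34 genes and all lists were chosen with earlier results of these data known. All 34 are named; full statistics go to those past the threshold, otherwise to the 3 highest and 3 lowest. Trim25 was added to the site comparison, and the marker, Cxcl10, Ddx3y, Ifng, Ifnk and Il28b values were named after they were seen. Some genes of the marker and pathway lists are not reported here. Gene coordinates are from GENCODE M21.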

Additional observations from a re-analysis of the deposited data

Results flagged for a closer look

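In the 4 sufficient tumors, 3 of the 34 genes had 1 tumor far from the other 3, by Dixon's criterion for 4 values. Cmpk2 had 3.50 RPKM in sufficient tumor 3 and 2.09 to 2.13 in the others, a gap of 0.967 of the range. Oas3 had 0.968 RPKM in sufficient tumor 1 and 0.116 to 0.257 in the others, a gap of 0.834. Oasl2 had 0.725 RPKM in sufficient tumor 1 and 0.315 to 0.321 in the others, a gap of 0.984. Chance flags about 1 in 20 groups. In each case the tumor that stood apart was the one with the higher Isg15 of its pair.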

How the results depend on the processing

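The depth is unknown, and the precision is limited by 2 deficient tumors. No interferon response gene passed it, between genotypes or sites, under any alternative run. Of all genes, 8 passed between genotypes, 3 with tumor site as a covariate, 3 in thymic tumors only, and 4 to 9 when 1 tumor was left out (4 without sufficient tumor 3, 5 without either deficient tumor). The median log2 fold change of the set, 0.23, then ran from -0.19 (without deficient tumor 1) to 0.59 (without deficient tumor 2), and stayed positive under the other alternatives, at 0.10 with a pseudocount of 5 and 0.32 with 0.1. Fits without 1 tumor of a group of 2 leave 1 there, assumed to vary like the other tumors. Without deficient tumor 1, 15 of 28 genes changed sign, and with median-ratio scaling 6 of 32 did; the cause was not tested. With the replicate number as a block, 1 gene passed, the median of the set was 0.15 and 0 members passed. The numbers do not pair these tumors: same-numbered tumors correlated by 0.02 and 0.21 in their deviations from the group means, and sufficient tumors 3 and 4 have no partner. Between sites, 19 genes passed, 11 with quantile normalization, 2 when all 6 tumors were fitted in 3 groups and 0 without the filter on low values (limma, 1388 at an unadjusted p of 0.05), where more genes were tested. Leaving out 1 tumor gave 11 to 67 (67 without sufficient tumor 2, 32 without sufficient tumor 1, 11 without sufficient tumor 4), and a median for the set of -0.09 to 0.42.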
